A study of Mus musculus with 23 samples.

Results

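The translation initiation factors were taken as the genes whose GENCODE vM21 symbol starts with Eif and a digit, with the Eif2ak kinases and the Eif4ebp binding proteins left out. The rule used names only and no measured value. It matched 59 annotated symbols, of which 48 protein-coding genes were counted, out of 22350 genes in all. The remaining matches were 10 processed pseudogenes and 1 non-coding gene that the count tables do not hold.

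The study compared intestinal cells with and without Raptor, the subunit of the kinase complex mTORC1 that brings substrates to mTOR, by RNA-seq and by sequencing of ribosome footprints. All animals were C57BL/6 mice. WT organoids (genotype VillinCre.ERT2.RPL22.HA, 2 lines with 2 technical libraries each) and Rptor fl/fl organoids (labelled VillinCre.ERT2.Rptor.fl/fl, 2 lines with 2 technical libraries each) gave RNA, and both are labelled untreated as to medium. Stem cell enriched (SCe) organoids carried the WT genotype and were grown with 10 µM CHIR 99021 and 1.5 mM valproic acid (3 lines), and gave RNA and footprints. Rptor fl/fl footprint organoids (3 lines) carried VillinCre.ERT2.Rptor.fl/fl.RPL22.HA. Mice carried Lgr5Cre.ERT2.RPL22.HA without (3 mice) or with Rptor.fl/fl (3 mice), and small intestine gave footprints only. Every Cre is induced by tamoxifen. Villin drives Cre throughout the intestinal epithelium and Lgr5 in its stem cells, and RPL22.HA puts an HA tag on the ribosomes of recombined cells, by which footprints were pulled down. The RNA libraries labelled Rptor fl/fl are the only organoid group whose label lacks RPL22.HA. Rptor loss and absence of the tag therefore cannot be told apart in a comparison of RNA with WT or SCe. Nor can they in translation efficiency, where the Rptor fl/fl label lacks the tag for RNA and carries it for footprints. Rptor fl/fl organoids were grown without CHIR 99021 and valproic acid. In every comparison with SCe, of RNA, footprints or translation efficiency, Rptor loss and this difference in medium cannot be told apart.

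Initiation begins when eIF2 carries the initiator tRNA and GTP to the small ribosomal subunit, where eIF1, eIF1A, eIF3 and eIF5 gather. The cap-binding complex eIF4F (the cap-binding protein eIF4E, the scaffold eIF4G and the helicase eIF4A) recruits this assembly to the mRNA, which is then scanned to a start codon, after which eIF5B joins the large subunit. mTORC1 is known to govern eIF4E through the Eif4ebp proteins and to favour translation of TOP mRNAs, which begin with a C and a run of pyrimidines and encode ribosomal proteins and several initiation factors.

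Start-site windows of 7 factors are shown because TOP sequences are read at the first bases of an mRNA. Each runs from 10 bases before to 20 bases from the start of transcription in the RefSeq annotation (GRCm38.p6), 5′ to 3′. Capitals mark a C followed only by C or T, at least 5 bases in all, that begins no more than 5 bases from the start base. Where a window held several such runs, only the longest is marked. Eif3f (chr7:108934405-108934434, plus strand), Eif2s3x (chrX:94212632-94212661, minus strand) and Eif3l (chr15:79075213-79075242, plus strand) were on a list of 11 known TOP members. Eif2s3y, the Y-linked copy (chrY:1010585-1010614, plus strand), was not on it. Eif4b (chr15:102073763-102073792, plus strand) was on the list, and the last pair, Eif5 (chr12:111538091-111538120, plus strand) and Eif1ax (chrX:159372168-159372197, plus strand), was not.
Eif3f: tctaggCTCTCTCTCTTTCTCggcaagatg
Eif2s3x: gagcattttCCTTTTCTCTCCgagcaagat
Eif3l: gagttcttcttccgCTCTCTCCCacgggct
Eif2s3y: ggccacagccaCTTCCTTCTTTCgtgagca
Eif4b: tcccgtcggacgccgcgccaccccctcgcg
Eif5: cgacgtgcatgcgagccaatgacaagagaa
Eif1ax: ggaggagggcggggagaagccccgcccgct
Of these the run of Eif3f was longest, with 15 pyrimidines from position -4. The X and Y copies of eIF2γ each had a run of 12. Promoters were matched for 38 of the 48 factors, and 10 of these (26.3%) held such a run, beside 21.2% of the 27025 genes with a promoter. These 27025 are all genes with a RefSeq promoter, not only those counted in this series. In this search and the next, a gene with several promoters counted if any of them matched. The number of promoters per gene was not made equal between the factors and all genes. Of the known TOP members, 3 of 9 held one, and the annotated start of Eif4b did not. The sequence CACGTG, a palindrome known as the E-box bound by Myc, stood in the 300 promoter bases of 10 of the 38 factors (26.3%) and of 8.09% of all genes, the same on both strands, and neither search left out overlaps with the other. These are matches of letters in a window.

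RNA libraries held 23802944 to 67598878 reads on genes, organoid footprint libraries 1106178 to 8257457 and mouse libraries 772077 to 8238388. Rptor mRNA was 51.4 and 47.8 counts per 1000000 (CPM) in WT and 14.9 and 15.4 in Rptor fl/fl organoids, a log2 fold change of -1.71 (SE 0.08, adjusted p = 0.00516, edgeR's quasi-likelihood test with Benjamini-Hochberg adjustment over all genes tested). In footprints the labels were not separated by this gene, with 14.7, 41.4 and 20.9 CPM in SCe beside 17.4, 19.0 and 16.2 under the Rptor fl/fl label (log2 fold change -0.53, adjusted p = 0.318 in edgeR). In mice the change was -0.28 (adjusted p = 0.150 in edgeR). SCe line 1 stood apart from the other SCe lines in RNA and in footprints, with a chi-square per gene of 172 to 192 against lines 2 and 3 in RNA, where lines 2 and 3 differed from each other by 19.8.

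Levels of the factors were compared with each other per length, as transcripts per 1000000 (TPM) summed over a gene's entries. In WT organoids the helicase Eif4a1 stood highest at 1029 ± 34.2 TPM (SD, n = 2), followed by Eif5a, which carries hypusine and aids elongation, at 849.6 ± 27.0 TPM. Eif1, which guards start codon choice, followed at 398.8 ± 20.8 TPM and the eIF4G relative Eif4g2 at 380.9 ± 2.5 TPM, and these neighbours differed by less than the SD of Eif1. These 4 kept their order per kilobase of full entry length. Of 14 eIF3 genes 12 lay between 131.5 TPM (Eif3d) and 286.0 TPM (Eif3l). The place of the cap-binding protein Eif4e depended on the scale, since it stood at 189.6 ± 7.6 in TPM and at 88.8 ± 2.9 per kilobase of full length (n = 2 each), and on the latter it lay below those 12 (lowest Eif3g at 153.4). The 5 subunits of eIF2B, which recharges eIF2 with GTP, lay between 15.7 TPM (Eif2b3) and 56.5 TPM (Eif2b5). At the bottom were Eif4e3 at 2.36 TPM, Eif5a2 at 0.615 TPM and the oocyte form Eif4e1b at 0.014 TPM. All 48 factors summed to 7845 ± 232 TPM in WT, 7899 ± 788 in Rptor fl/fl (n = 2 each) and 7655 ± 1022 in SCe organoids (n = 3), which overlapped.

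In footprints, where short entries make the effective length behind TPM unreliable, levels are given as counts per kilobase of full entry scaled in the way of TPM, a scale chosen after seeing the data. On it Eif5a led at 2360 ± 42.5 in Rptor fl/fl and 2070 ± 157 in SCe organoids (n = 3 each). Eif4a1 stood at 1201 ± 32.9 and 1051 ± 134, and Eif1 at 1112 ± 64.2 and 1193 ± 369, and in SCe these neighbours differed by less than the SD of Eif1. In WT mouse footprints (n = 3) the order of the top factors changed with the scale. Per kilobase of full length Eif5a (650.9 ± 44.6) stood above Eif1 (557.9 ± 28.5) and Eif4a1 (509.1 ± 14.2), and in TPM Eif1 (778.1 ± 49.2) stood above Eif5a (569.2 ± 39.8) and Eif4a1 (300.9 ± 8.2).

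The Y-linked gene of the γ subunit of eIF2 separated the organoid lines. Eif2s3y had 0, 1 and 0 reads in line 1 of WT, Rptor fl/fl and SCe RNA, and 60.0 to 74.0 CPM in every other RNA line. In footprints it had 11 and 1 reads in line 1 of Rptor fl/fl and SCe, and 27.4 to 69.7 CPM in lines 2 and 3. Every mouse library held reads on it, between 29.9 and 50.4 CPM. The X-linked copy Eif2s3x moved the other way between lines. It stood at 497.3 CPM in line 1 and 299.6 in line 2 of WT, at 493.6 and 265.3 in Rptor fl/fl, and at 572.6 against 348.9 and 327.0 in SCe RNA. With both copies summed, line 1 was still 1.37, 1.49 and 1.41 times the mean of the other lines in these 3 groups. In footprints the same ratio was 1.04 in Rptor fl/fl and 1.41 in SCe. Neither copy passed the test between groups (adjusted p from 0.788 to 0.989 for RNA in edgeR).

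**Figure D1:**
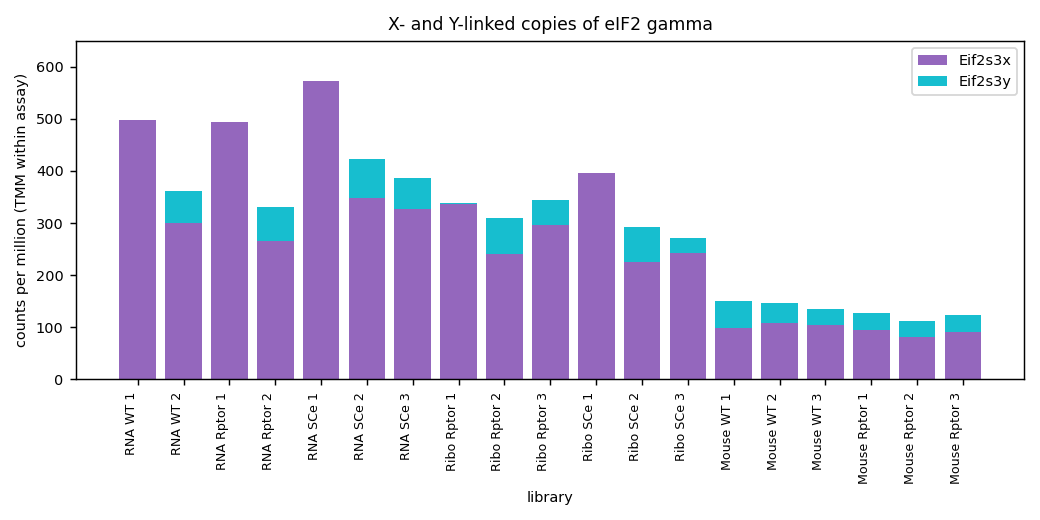
Stacked bars of CPM (normalised within each assay) of Eif2s3x and Eif2s3y in each of the 19 lines and mice. Line 1 of each organoid group has almost no Eif2s3y and a higher Eif2s3x than its neighbours, and all 6 mice have both.

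Loss of Raptor was first compared with WT in organoid RNA. Of 47 factors that passed the filter on low counts, 2 rose and 3 fell, where 11.6% of the 14131 genes tested rose and 11.0% fell. In all 10.6% of the factors passed beside 22.6% of genes tested, and 46 of 47 had a log2 fold change between -0.5 and 0.5. Their median was -0.07 beside 0.00 over all genes tested, with 34 of 47 below 0. The median rested on the Rptor fl/fl lines, at -0.17 with 8 of 47 above 0 without line 1 and at -0.01 with 22 above 0 without line 2. Counts of called factors with a line or mouse left out are given below without the share of all genes called in the same fit. Such counts are not a result about the factors, and where they moved the cause was not tested.

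The factors that fell bind the cap or scan. Eif4e3, a minor relative of eIF4E, had 4.4 and 4.3 CPM in WT and 1.7 and 1.6 in Rptor fl/fl, a log2 fold change of -1.42 (SE 0.17, adjusted p = 0.0138 in edgeR). Eif4e itself had 127.4 and 126.0 CPM in WT and 104.8 and 94.0 in Rptor fl/fl, 1.28-fold lower (log2 fold change -0.36, SE 0.07, adjusted p = 0.0274 in edgeR). Eif1ax, the X-linked eIF1A that opens the small subunit for scanning, had 124.2 and 131.6 CPM against 104.6 and 103.7 (log2 fold change -0.30, SE 0.06, adjusted p = 0.0285 in edgeR). In each of these 3 the groups did not overlap, which is no separate support for genes called from the same values. An annotated transcript, Gm20696, shares exons with Eif4e3, and it held 1 to 28 reads in the RNA libraries.

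The factors that rose were a scaffold and an eIF3 subunit. Eif4g3, an eIF4G paralog, had 85.7 and 80.7 CPM in WT and 119.0 and 105.7 in Rptor fl/fl (log2 fold change 0.43, SE 0.07, adjusted p = 0.0240 in edgeR). Eif3f, whose TOP start is printed above, had 255.6 and 252.9 CPM against 316.3 and 318.6 (log2 fold change 0.32, SE 0.06, adjusted p = 0.0282 in edgeR). Of the other main members of each role, Eif4a1 stood at -0.28, Eif2b5 at -0.25, Eif5a at -0.22 and Eif2s1, the regulated α subunit of eIF2, at -0.21 on the log2 scale. Eif4b, which stimulates eIF4A, stood at 0.15, Eif4g1 at 0.06 and Eif6, which keeps free large subunits apart, at 0.03, and none of these 7 passed the test (adjusted p from 0.0763 to 0.676 in edgeR). Leaving out WT line 1 left 0 calls, and leaving out WT line 2, Rptor fl/fl line 1 or Rptor fl/fl line 2 left 1, 3 and 2.

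The SCe culture served as the reference for footprints, so it was compared with WT in RNA. Of 47 factors 9 rose and 2 fell, where 22.4% of 14925 genes rose and 19.9% fell. The median of the factors was 0.04, beside 0.02 over all genes tested. WT libraries are shared with the comparison above.

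The largest rises were in minor paralogs. Eif5a2, the second eIF5A gene, had 2.8 and 1.9 CPM in WT and 23.3, 17.8 and 21.0 in SCe, 8.87-fold higher (log2 fold change 3.15, SE 0.24, adjusted p = 0.00166 in edgeR). Eif4e3 had 21.2, 21.8 and 22.2 CPM in SCe, 5.06-fold above WT (log2 fold change 2.34, SE 0.10, adjusted p = 0.00114 in edgeR). Their abundant counterparts Eif5a and Eif4e did not pass, at 583 to 624 and 140.2 to 140.9 CPM in SCe. Eif2d, which can deliver tRNA without GTP, rose by 0.64 on the log2 scale from 43.1 and 44.4 CPM to between 65.4 and 69.2 (adjusted p = 0.00278 in edgeR). Eif3k, a peripheral eIF3 subunit, rose by 0.54, Eif4g3 by 0.51 and Eif1ax by 0.40, and Eif4enif1, which shuttles eIF4E into the nucleus, fell by 0.39 on the log2 scale (adjusted p from 0.00642 to 0.00835 in edgeR). The 3 remaining calls, named after their values were seen, were Eif3d (0.41), Eif2b3 (0.39) and Eif3j2.

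Eif3j1 and Eif3j2 are near-identical copies, and Eif3j1 rose by 0.41 while Eif3j2 fell by 0.32 on the log2 scale. Summed, the copies had 107.7 and 109.0 CPM in WT and 96.96 to 104.2 in SCe, a change of -0.08 that did not pass (adjusted p = 0.357 in edgeR), so the split between them is uncertain. Without WT line 1 or WT line 2 there were 3 calls, and without SCe line 1 there were 20. Eif4e3, Eif5a2 and Eif2d passed under all 13 alternatives.

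Rptor fl/fl was next set against SCe in RNA, the mRNA side of translation efficiency, with the same Rptor fl/fl and SCe libraries as above. Of 47 factors 2 rose and 9 fell, where 21.0% of 15103 genes rose and 21.8% fell. The median of the factors was -0.15 beside -0.01 over all genes tested, with 36 of 47 below 0. Without Rptor fl/fl line 2 the median was -0.06 with 18 above 0. With all lines the medians of the role groups lay below 0 for all 7 groups and were closest to it for the scanning and subunit joining factors.

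Eif4e3 was 13.3-fold lower (log2 fold change -3.73, SE 0.13, adjusted p = 0.000960 in edgeR) and Eif5a2 7.89-fold lower (-2.98, SE 0.19, adjusted p = 0.00107 in edgeR). Eif1ax had 165.9, 166.8 and 167.3 CPM in SCe and 104.6 and 103.7 in Rptor fl/fl, 1.60-fold lower (log2 fold change -0.68, SE 0.06, adjusted p = 0.00211 in edgeR). Eif4e was 1.42-fold lower (-0.50, SE 0.07, adjusted p = 0.00623 in edgeR). Eif2d changed by -0.55, the eIF2B subunit Eif2b2 by -0.50 and Eif3k by -0.40, and Eif4enif1 rose by 0.37 (adjusted p from 0.0111 to 0.0162 in edgeR). The 3 remaining calls, named after their values were seen, were Eif3d (-0.45), Eif3j1 (-0.35) and Eif3f (0.37). Eif4e3, Eif5a2 and Eif1ax passed under all 13 alternatives. Without SCe line 1 there were 18 calls, without SCe line 2 or 3 there were 6, and without Rptor fl/fl line 1 or 2 there were 5 and 3. The Eif3j1 call was not kept with the copies summed (log2 fold change 0.07, adjusted p = 0.506 in edgeR).

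**Figure D2:**
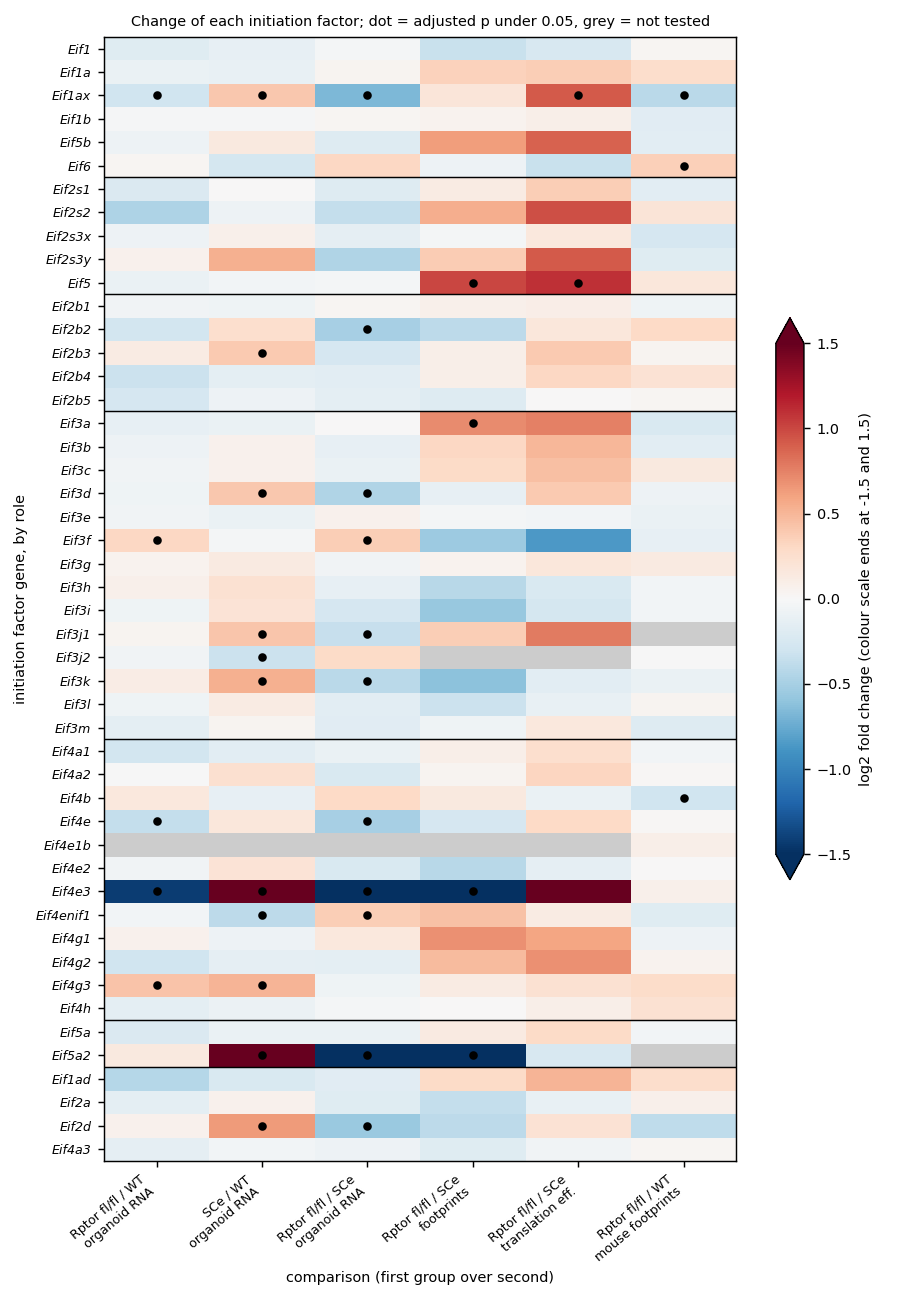
Log2 fold change of each of the 48 factors (rows, by role) in each of the 6 comparisons (columns), red for higher and blue for lower in the first-named group, with dots where the adjusted p was under 0.05. Most cells are pale, and Eif4e3 and Eif5a2 carry the deepest colours in organoids.

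Footprints of Rptor fl/fl organoids were compared with those of SCe. Of 46 factors 2 rose and 2 fell, where 6.63% of 10817 genes rose and 9.84% fell. The median of the factors was 0.06 beside -0.02 over all genes tested.

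Eif5 (chr12:111538016-111546752), the GTPase activator of eIF2, had the smallest adjusted p. It had 166.3, 193.6 and 208.8 CPM in SCe and 371.3, 385.2 and 416.0 in Rptor fl/fl, 2.01-fold higher (log2 fold change 1.00, SE 0.16, adjusted p = 0.00494 in edgeR). Its RNA was 510.1 to 599.4 CPM in SCe and 510.0 to 569.1 in Rptor fl/fl, which overlapped. The footprint call held under 12 of 13 alternatives, and with an offset for effective length the change was 1.67 with an adjusted p of 0.0918 in edgeR.

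Eif3a, the largest eIF3 subunit and a scaffold of the complex, had 531.0, 580.8 and 661.3 CPM in SCe and 870.8, 1122.2 and 993.4 in Rptor fl/fl (log2 fold change 0.71, SE 0.18, adjusted p = 0.0276 in edgeR). The groups did not overlap, but the call was lost when SCe line 2 or any Rptor fl/fl line was left out (adjusted p from 0.0623 to 0.145 in edgeR). The paralogs that fell in RNA also fell in footprints. Eif5a2 had 12, 3 and 11 footprints in SCe and 2, 0 and 6 in the deeper Rptor fl/fl libraries (log2 fold change -3.24, SE 0.87, adjusted p = 0.0361 in edgeR). Eif4e3 had 27, 4 and 59 footprints against 29, 17 and 20, or 14.2, 3.4 and 13.6 CPM against 4.9, 2.7 and 2.5, which overlapped, and sat at the threshold (log2 fold change -1.75, SE 0.52, adjusted p = 0.0499 in edgeR). Each was called under 5 of 13 alternatives. Without SCe line 1 or 3 there were 7 and 9 calls, and without any 1 Rptor fl/fl line there was 1.

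Eif4g1, the main scaffold of eIF4F, had 465.2, 712.7 and 765.5 CPM in SCe and 1036.2, 1103.5 and 1068.8 in Rptor fl/fl, a log2 fold change of 0.69 that missed the threshold (adjusted p = 0.0561 in edgeR). The log2 fold change of Eif4e was -0.25 (adjusted p = 0.42 in edgeR). The near-identical copies were not resolved here either, since Eif3j2 had no footprints except 54.5 CPM in Rptor fl/fl line 1. Their sum was 67.6 to 84.5 CPM in SCe and 120.6 to 123.5 in Rptor fl/fl, with a log2 fold change of 0.61 and an adjusted p of 0.0327 in edgeR, a test added after seeing the data.

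Footprint change went with length. Spearman's correlation between entry length and log2 fold change was 0.153 over 10817 genes and 0.363 over the 46 factors, across genes that share the same libraries. The part of length in the Eif5 and Eif3a results was not tested beyond the offset. Footprints of stem cell markers (Lgr5, Olfm4, Ascl2, Smoc2, Axin2 and Mex3a) summed to 1510 to 3049 CPM in SCe and 5043 to 5396 in Rptor fl/fl, with reads on all 6 genes in both, and stromal markers to 136.3 to 805.1 and 5.14 to 9.72 CPM. In RNA the stem cell list summed to 3576 to 5135 CPM in WT, 823.7 to 2044 in Rptor fl/fl and 839.2 to 1633 in SCe. The most abundant gene of a list can set such a sum, and the direction of each gene is not given here. The part of cell make-up in the results was not tested, and fewer cells of a type and less RNA per cell cannot be told apart in such samples.

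**Figure D3:**
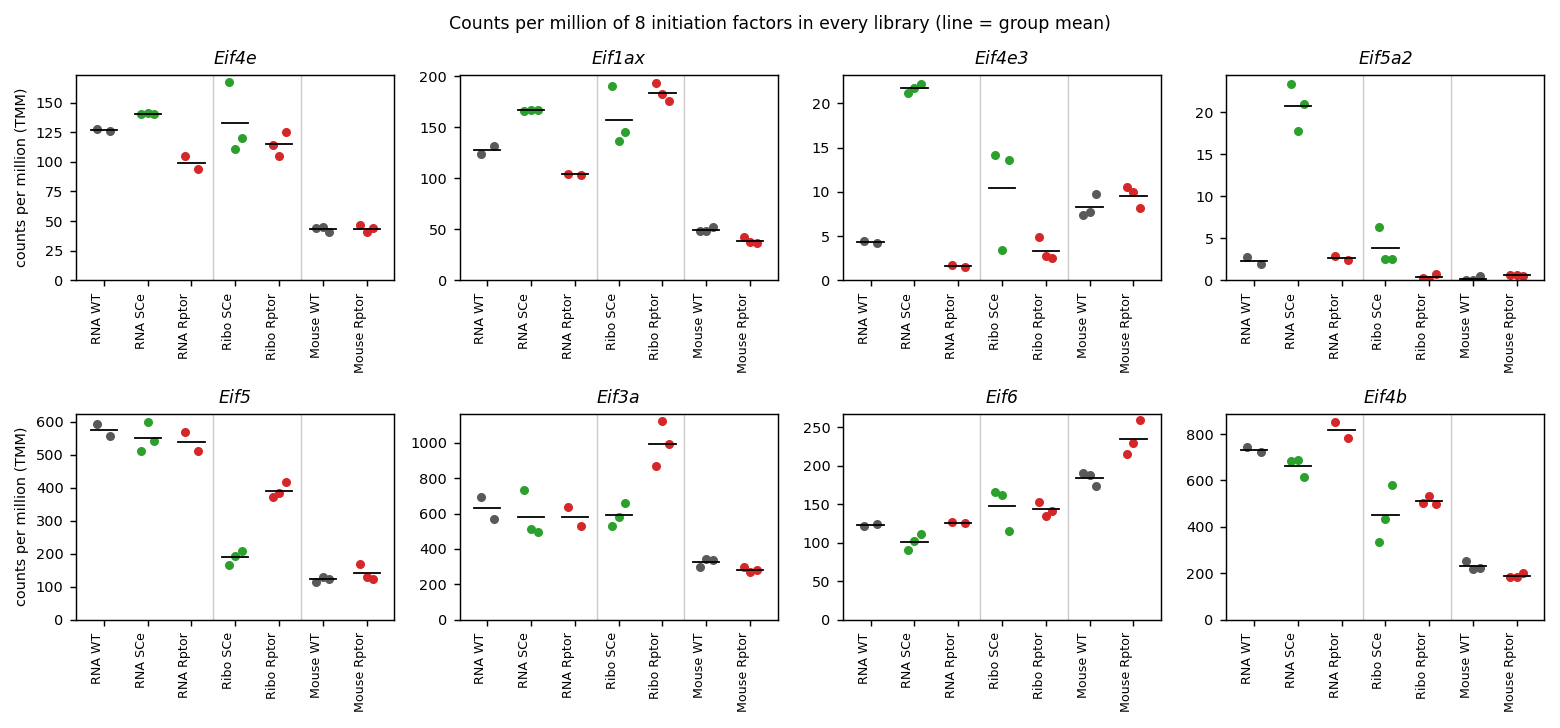
CPM values of 8 factors in each line or mouse (points) with the group mean (line), for RNA, organoid footprints (Ribo) and mouse footprints, from 0 on each axis. Eif5 footprints are separated between SCe and Rptor fl/fl while its RNA overlaps, and Eif4e3 and Eif5a2 RNA is high in SCe.

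Translation efficiency, the footprint change beyond the RNA change, was tested as an interaction of assay and group in 1 edgeR model. For Rptor fl/fl the RNA came from 2 lines labelled without RPL22.HA and the footprints from 3 lines labelled with it. Rptor RNA stood at 53.6 to 60.6 CPM in SCe and at 14.9 and 15.4 in Rptor fl/fl. Rptor footprints did not separate these groups, as given above. The part of these differences in the translation efficiency changes was not tested. Of 46 factors 2 rose and 0 fell, where 1.12% of 10747 genes rose and 1.81% fell. At an unadjusted p under 0.05 in edgeR there were 9 higher and 1 lower, beside 936 higher and 1241 lower of the 10747 genes. DESeq2 called 6 higher and 1 lower, beside 501 and 705 of all genes. The median of the factors was 0.23 beside -0.03 over all genes tested, and 33 of 46 factors (71.7%) lay above 0 against 47.7% of all genes. Over 18 alternatives the median of the factors stayed between 0.13 and 0.31 and the number above 0 between 30 and 35. The factors share libraries and are not replicates, and their RNA median was -0.15 and their footprint median 0.06.

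Eif5 rose most among the 2 that passed, by 1.09 on the log2 scale (SE 0.20, 2.13-fold, adjusted p = 0.0224 in edgeR). Eif1ax rose by 0.92 (SE 0.21, 1.89-fold, adjusted p = 0.0439 in edgeR), made of an RNA change of -0.68 and a footprint change of 0.18. Its footprints were 190.5, 136.1 and 145.0 CPM in SCe and 193.9, 182.2 and 175.3 in Rptor fl/fl. With an offset for effective length neither passed, nor did either with replicate numbers as a block within each assay. Of 18 alternatives Eif5 passed in 9 and Eif1ax in 6. Both were lost without RNA SCe line 2 or 3, without either RNA Rptor fl/fl line and without any footprint Rptor fl/fl line, where 0 factors were called except 1 other without footprint Rptor fl/fl line 1. Without footprint SCe line 1 there were 5 calls, both among them.

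By role, all 5 of eIF2 and eIF5 and all 5 subunits of eIF2B lay above 0, with medians of 0.91 and 0.17. The first group ran from 0.16 to 1.09. It counts Eif2s3y, nearly absent from line 1 of every organoid group, as a gene apart from Eif2s3x. With these copies summed, a test added after seeing the data, the change was 0.23 (adjusted p = 0.738 in edgeR). The eIF4F group had 9 of 11 above 0 (median 0.25) and eIF3 7 of 13 (median 0.16). Values ran from -0.86 for Eif3f (adjusted p = 0.0813 in edgeR) to 2.00 for Eif4e3 (adjusted p = 0.0827 in edgeR), neither of which passed. Eif2s1 stood at 0.37 and Eif4g1 at 0.59, and none of the 8 main members of each role passed (adjusted p from 0.236 to 0.988 in edgeR).

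The 11 known TOP members had a median translation efficiency change of -0.04, with 5 above 0, and the other 35 factors a median of 0.30, with 28 above 0. In RNA the medians of the same lists were -0.13 and -0.15, and in footprints -0.03 and 0.09. Of the TOP members Eif3a rose in footprints and Eif3f had the lowest translation efficiency change, and none passed in translation efficiency.

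**Figure D4:**
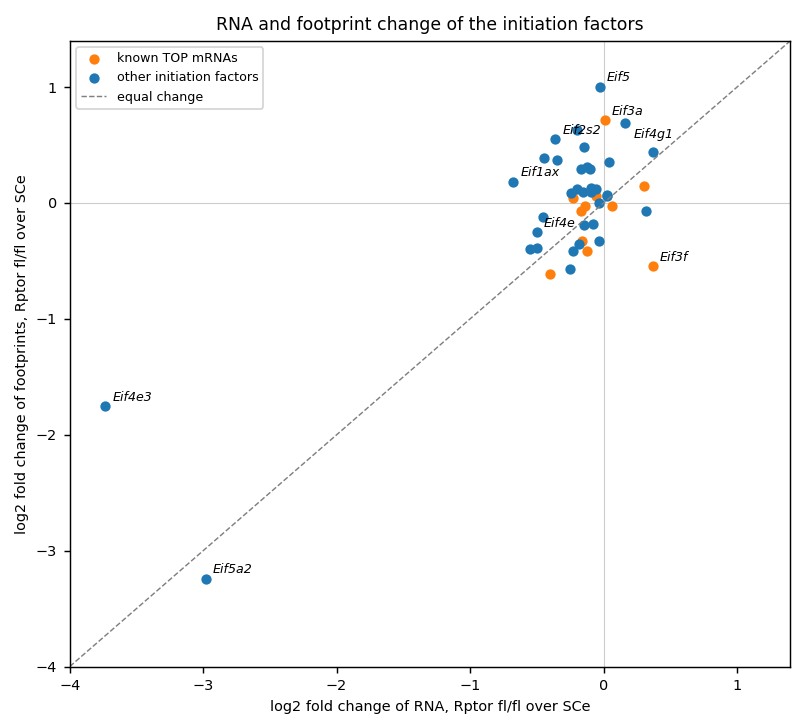
Log2 fold change of RNA (horizontal) against footprints (vertical), Rptor fl/fl over SCe, for the 46 factors tested in both, with known TOP mRNAs in orange and a dashed line of equal change. Eif5 is the highest point, Eif3f lies below the line and Eif4e3 and Eif5a2 sit at the lower left.

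Footprints of organoids were also counted by the authors on separate 5′ entries, made of the leader before the coding region and 11 bases of it. Coding entries were a median of 49 bases longer than the annotated coding length, and on which side these bases lie was not examined. Both kinds of entry can hold bases near the start codon, where the split of footprints between them is an estimate. The part of this in the shares below was not tested. Over all genes such entries took 2.97% to 6.99% of footprints per library. Of 43 factors with such an entry, 41 had footprints in all 6 libraries. Of these 10 (24.4%) exceeded the share of their library in all 6, beside 25.7% of 10098 genes, and 24 (58.5%) stayed below it in all 6, beside 31.1% of genes. Those above were Eif5, Eif5a, Eif4g1, Eif6, Eif4g2, Eif1ad, Eif2s1, Eif2s2, Eif1ax and Eif4e2. Of those below, 7 had more than 3 such footprints in every library (Eif1, Eif3k, Eif5b, Eif3d, Eif3c, Eif3l and Eif1a), and the others held 0 to 74 over all libraries, among them Eif4b with 7 and Eif2s3x with 4.

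Start codons of leaders are shown for 3 factors with high shares, with 9 bases on each side, from GENCODE vM21 (GRCm38), the start codon in capitals. In the Eif5 transcript whose 5′ entry held most of the gene's 5′ footprints (1399 of 2481), upstream AUGs lie 122 and 90 bases before the coding start (chr12:111539485-111539505 and chr12:111539517-111539537, plus strand), beside the coding start (chr12:111539607-111539627).
Eif5 at -122: aattttttcATGtcagagacc
Eif5 at -90: cagtcgtttATGtcatccctt
Eif5 coding start: taagccaaaATGtctgtcaac
The reading frame from -122 spans 61 codons, out of frame, and ends past the coding start, and that from -90 ends in the leader after 22 codons. The annotated coding frame of this transcript itself has 53 codons. In Eif2s1 upstream AUGs lie at -192 and -130 (chr12:78861981-78862001 and chr12:78862043-78862063, plus strand).
Eif2s1 at -192: caagactctATGgttagtggc
Eif2s1 at -130: tggctccgcATGcgcgctggg
Eif4g2, whose protein is known to start at a GUG codon, has 1 upstream AUG at -286 (chr7:111082973-111082993, minus strand) and its annotated coding start at chr7:111081536-111081556, minus strand.
Eif4g2 at -286: cggagctctATGgaggtggcg
Eif4g2 coding start: gccgccaaaGTGgagagtgcg
Of the 20 factors whose leading 5′ entry held at least 50 footprints, 12 had an upstream AUG, where 62.0% of 3901 such genes had one. Eif6, Eif5a and Eif1ax, with shares above their library, had none in that leader.

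The highest share was that of Eif1ad, at 60.5%, 52.9% and 32.5% in SCe and 41.8%, 35.1% and 35.0% in Rptor fl/fl, and its exons overlap those of Banf1 on the other strand. Eif5 had 34.6%, 24.2% and 22.3% in SCe (27.0% ± 6.6, SD, n = 3) and 15.8%, 21.4% and 21.3% in Rptor fl/fl (19.5% ± 3.2, n = 3), which did not overlap by a narrow margin. Eif6 stood at 21.9% ± 6.8 and 22.1% ± 2.2 and Eif4g2 at 14.4% ± 2.4 and 11.4% ± 0.9 (SD, n = 3 each), and both overlapped. Eif4e spread widely, with 27.9%, 22.8% and 6.91% in Rptor fl/fl and 5.16%, 2.90% and 9.91% in SCe. Shares of all genes on 5′ entries were themselves higher in SCe lines 1 and 2 (6.99% and 5.42%) than in any other library, and no test was made of these shares.

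**Figure D5:**
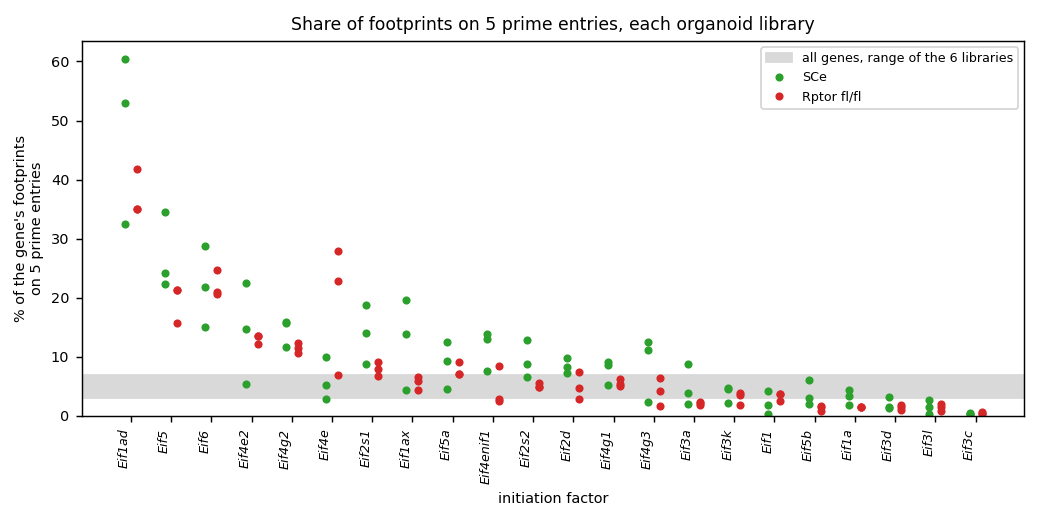
Percent of a gene's organoid footprints that lie on 5′ entries, for the 22 factors with more than 3 such footprints in every library, each point being 1 line, with the range over all genes in grey. Eif1ad, Eif5, Eif6 and Eif4g2 lie above the grey band in all 6 libraries.

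Footprints of small intestine from mice were compared between Rptor fl/fl and WT. Of 46 factors 1 rose and 2 fell, where 7.47% of 11515 genes rose and 5.97% fell, and 46 of 46 lay within 0.5 of 0 on the log2 scale. The median of the factors was 0.00 beside -0.02 over all genes tested.

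Eif6 (chr2:155819832-155826925) had 190.6, 187.6 and 173.4 CPM in WT and 215.2, 229.4 and 259.0 in Rptor fl/fl, 1.28-fold higher (log2 fold change 0.35, SE 0.09, adjusted p = 0.0157 in edgeR). Eif4b (chr15:102073773-102097173), a known TOP mRNA, had 254.5, 217.8 and 224.6 CPM in WT and 181.7, 182.3 and 200.3 in Rptor fl/fl, 1.23-fold lower (log2 fold change -0.30, SE 0.09, adjusted p = 0.0300 in edgeR). Eif1ax had 48.0, 48.8 and 52.1 CPM against 42.7, 37.4 and 36.2, 1.32-fold lower (log2 fold change -0.40, SE 0.12, adjusted p = 0.0382 in edgeR). In none of the 3 did the groups overlap, which again is no separate support for genes called from the same values.

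Eif4g1 stood at -0.07 and Eif4a1 at -0.04, and the 6 main members of each role that were not called lay between -0.16 and 0.02 (adjusted p from 0.368 to 0.971 in edgeR). Of the 11 known TOP members 8 lay below 0, with a median of -0.10, and of the other 35 factors 15 lay below 0, with a median of 0.02. Eif4e3 held 7.4 to 9.7 CPM in WT and 8.2 to 10.5 in Rptor fl/fl, and Eif5a2 at most 0.7 CPM in any mouse library. Eif4e1b held 1.8 to 6.1 CPM over the 6 mice and at most 0.48 CPM in any organoid line.

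With an offset for effective length none of these 3 calls held, and the value of Eif6 was 0.00. Leaving out WT mouse 3 or Rptor fl/fl mouse 2 left 0 calls, leaving out WT mouse 1 or 2 or Rptor fl/fl mouse 3 left 1, and leaving out Rptor fl/fl mouse 1 gave 6. The pulldown held RNA of other cells: immune markers summed to 14728 to 15498 CPM in WT and 12540 to 13723 in Rptor fl/fl, pancreatic acinar markers to 1413 to 3453 and 2580 to 3644, smooth muscle markers to 1298.5 to 1486.5 and 1264 to 1459, stromal markers to 913.3 to 941.9 and 1132 to 1400, and stem cell markers to 538.6 to 582.2 and 352.3 to 532.3, with reads on every gene of each list. These too are sums over lists, and the part of these cells in the result was not tested.

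Regulators of initiation outside the name rule were followed as a list of 35 genes, 34 of them in the files. In Rptor fl/fl against WT RNA 2 rose and 6 fell (23.5% of 34, beside 22.6% of all genes tested), and the values of 6 follow. Pabpc4, a poly(A)-binding protein, rose by 0.75 and the eIF2 kinase of the endoplasmic reticulum Eif2ak3 by 0.44 on the log2 scale. Eif4ebp1, the mTORC1 target that holds eIF4E, changed by -0.87, the eIF4A inhibitor Pdcd4 by -0.65, Paip2, which binds poly(A)-binding protein, by -0.34 and the kinase Eif2ak1 by -0.24 (adjusted p from 0.0186 to 0.0389 in edgeR).

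In SCe against WT RNA 5 rose and 9 fell (41.2%, beside 42.3% of all genes), among them Pdcd4 (-1.26), Paip2 (-0.80), the adaptor Nck1 (-0.73), Pabpc4 (0.79), Paip2b (0.69) and Impact, an inhibitor of the eIF2 kinase Gcn2 (1.03). In Rptor fl/fl against SCe RNA 6 rose and 4 fell (29.4%, beside 42.7%), among them Paip2b (-0.98), the helicase Dhx29 (-0.56), Eif2ak3 (0.74), Pdcd4 (0.63), Cyfip1 (0.53) and Paip2 (0.49). In footprints 2 rose and 1 fell of 32 (9.38%, beside 16.5%). Pdcd4 rose by 1.46 (SE 0.21, adjusted p = 0.00316 in edgeR), Eif2ak2 by 0.85, and Eif4ebp2 changed by -0.73. In translation efficiency Paip2b rose by 0.91 (adjusted p = 0.0437 in edgeR) and 0 fell (3.12%, beside 2.93%). At an unadjusted p under 0.05 in edgeR 6 regulators were higher and 4 lower, beside 936 and 1241 of 10747 genes. DESeq2 called 3 higher and 2 lower, beside 501 and 705 of all genes. In mice Eif4ebp3 rose by 0.78 and Larp1, which binds TOP mRNAs, changed by -0.36 (adjusted p = 0.0427 and 0.0417 in edgeR), 5.88% of 34 beside 13.4% of all genes.

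Across the 6 comparisons 30 of the 48 factors were called in none and 18 (37.5%) in at least 1, beside 61.8% of the 15898 genes tested at least once. Called in at least 3 were 3 factors (6.25%), beside 14.4% of genes. Those 3 were Eif1ax, which was called in 5 comparisons, Eif4e3 in 4 and Eif5a2 in 3, and the comparisons share libraries. Eif1ax was lower in Rptor fl/fl than in the reference in both RNA comparisons and in mice, with changes of -0.30, -0.68 and -0.40, and higher in translation efficiency. In organoid footprints it stood at 0.18 and did not pass (adjusted p = 0.528 in edgeR). Its call in mice was kept under 5 of 13 alternatives, and was lost with DESeq2, with the length offset, under the replicate block and when any mouse but Rptor fl/fl mouse 1 was left out.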

How the data were processed

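RNA-seq and ribosome footprint libraries were quantified by the authors with Salmon (version 1.1.0, after trimming with cutadapt 1.18 in the submitters' processing notes) against GENCODE vM21 transcripts. The deposited files give an estimated count and a TPM value per entry, and the organoid footprint reference has separate coding and 5′ entries. The authors' table of their own translation efficiency test was not used.

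Estimated counts were summed per gene over coding entries, technical libraries of a line were added, and sums were rounded. Genes were filtered by edgeR's expression filter, scaled by TMM and tested by edgeR's quasi-likelihood test (edgeR 4.0.16, limma 3.58.1, R 4.3.3) over all genes, with Benjamini-Hochberg adjustment and a threshold of 0.05. Each comparison used its own groups only, and the translation efficiency change was the assay by group interaction. Lines and mice were the replicates, and where labels do not say that lines came from separate animals the p-values measure only the spread between these samples. Counting error of few reads is not removed by these tests. Technical libraries of 1 line differed by a chi-square per degree of freedom of 2.03 to 4.67, and lines of WT and Rptor fl/fl RNA by 16.9 to 34.4. The scripts were tested on simulated data with known changes.

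Replicate numbers were not taken as pairs, and the fit with them as a block was an alternative. Line 1 of every organoid group had almost no Eif2s3y reads and the other lines held them, so the numbers went with this difference. The paper describes some Rptor fl/fl organoids induced in vitro to give paired samples, and the sample titles do not say which libraries these are. Whether lines of the same number share a source is therefore not known. Further alternatives were DESeq2 1.42.0, RLE factors, total counts, no filter, an offset for effective length, technical libraries as replicates and leaving out each line or mouse. Full-length levels and summed copies were added after seeing the data.

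Genes given with full values were those past the threshold (at most 8 per comparison by adjusted p), 8 members of each role (Eif4e, Eif4g1, Eif4a1, Eif4b, Eif2s1, Eif2b5, Eif5a and Eif6), up to 6 regulators per comparison, and Rptor. The members and lists were chosen with earlier results of these data known. Exons of 18 factors overlap another gene, in 9 a protein-coding one, and strand use in counting is not given in the sources used here. Promoter sequences are from RefSeq (GRCm38.p6).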

Additional observations from a re-analysis of the deposited data

Results flagged for a closer look

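The 5′ entries were outside the comparisons between groups. Of the 43 initiation factors with such an entry, 22 had more than 3 footprints on it in each of the 6 organoid footprint libraries. Here 3 is the limit that a count of 0 allows. The share of all genes past the same limit was not computed, so this count is not a result about the factors. Eif5 had the most, with 2481 footprints over the 6 libraries.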

How the results depend on the processing

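Of 983 recomputed values for single genes, 775 kept their direction and side of the threshold, 188 kept their direction but no longer passed, 18 newly passed and 2 reversed. Those 2 were Eif4g1 in Rptor fl/fl against WT RNA without Rptor fl/fl line 1 (range over the lines left out -0.01 to 0.143) and Eif3j1 in SCe against WT RNA with the copies summed (-0.078). Counts of called factors follow, without the shares of all genes called under the same settings. They are therefore not a result about the factors, and where they moved the cause was not tested. DESeq2 called 8 factors in Rptor fl/fl against WT RNA, 8 in organoid footprints and 7 in translation efficiency. Technical libraries as replicates, which are not independent lines, gave 20 (Rptor fl/fl against WT), 18 (SCe against WT) and 21 (Rptor fl/fl against SCe). Total counts gave 1 in translation efficiency and 5 in mice, and no filter gave 1 in translation efficiency. The length offset gave 1 in organoid footprints, 0 in translation efficiency and 1 in mice. Leaving out single lines or mice gave 0 to 3, 3 to 20, 3 to 18, 1 to 9, 0 to 5 and 0 to 6 in the order of the report's 6 comparisons. The labels do not say that a replicate number marks a shared animal or day. Same-numbered samples deviated together by a correlation of 0.434 (Rptor fl/fl against WT), 0.25 and 0.228 (SCe against WT) and 0.344 and 0.309 (Rptor fl/fl against SCe) in RNA, where only 2 pairs exist, and of -0.06 to 0.03 in organoid footprints and -0.05 to 0.00 in mice, where the samples did not each correlate best with their own number. The replicate block gave 12, 4, 4, 1, 0 and 1, and under it the adjusted p in edgeR was 0.194 for Eif5 and 0.222 for Eif1ax in translation efficiency. Summed levels moved from 5196 TPM to 9952 per kilobase of effective length in Rptor fl/fl footprints. There the deposited TPM was scaled over coding and 5′ entries together, and the other scale over coding entries only. Where no 5′ entries exist both scales gave the same sum, 7845 in WT RNA and 4081 in WT mice. On full length the sums were 8995 in WT RNA, 11395 in Rptor fl/fl footprints and 5126 in WT mice. Depth limits Eif5a2 and Eif4e3 footprints, with 0 to 12 and 4 to 59 counts per organoid library.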
